A study of Mus musculus with 4 samples.

Results

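The 48 genes described here are the Rab GTPase genes of bone marrow-derived macrophages, taken from 54532 genes in the deposited table, 22046 of them protein coding. They are the protein-coding genes whose symbol is Rab, a number and at most a letter and a digit, with at least 50 counts summed over the 4 libraries. Of 59 genes with such a symbol, 11 had fewer. Members of the gene family were thus chosen by name and by a count summed over treated and untreated libraries. A gene low in 1 treatment could therefore enter through the other. Rab30, with 5 and 15 untreated counts against 88 and 116 after LPS, reached the minimum only through the LPS libraries. Rab27a, Rab3a, Rab36 and Rab42 reached it only through the untreated libraries. The LPS effects of these genes are not independent of that choice. Just inside the minimum lay Rab42 with 67 counts and Rab3a with 183, and just outside it Rab33a with 38 and Rab15 with 36. The remaining genes under the minimum were Rab27b with 19 counts, Rab26 with 8, Rab17, Rab39b and Rab40b with 6 each, Rab3b and Rab25 with 4 each, Rab3c with 2 and Rab9b with 0. A count of 0 allows a level of up to 3 counts in each library, and for these genes no comparison was made.

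Rab proteins are small GTPases of the Ras superfamily that mark the membranes of the cell. They switch between a GDP-bound form, kept soluble by a GDP dissociation inhibitor, and a GTP-bound form that sits on a membrane through a lipid anchor and recruits effectors such as tethers, motors and lipid kinases. Guanine nucleotide exchange factors (GEFs) turn them on and GTPase-activating proteins (GAPs) turn them off. In macrophages, Rab proteins order the steps by which a phagosome matures, deliver cytokines and receptors to the cell surface and direct endocytosed receptors to recycling or to lysosomes.

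Polyadenylated RNA was sequenced from macrophages derived over 6 days from bone marrow. The donors were C57BL/6 mice of 6 to 8 weeks, and the medium held 10% serum and 20% L929-conditioned medium, a source of macrophage colony-stimulating factor. Every mouse was FBXW7f/f, with Fbxw7 alleles that Cre recombinase can excise. The deleting genotype is LysM-cre FBXW7f/f, with a Cre recombinase active in myeloid cells and inserted in the Lyz2 gene. Titles divide the libraries into WT and KO, and the tag that names the cre does not follow that division, as described with the label checks. Fbxw7 encodes the substrate-binding subunit of a ubiquitin ligase. Treatment was lipopolysaccharide (LPS), a component of the bacterial outer membrane, for 3 h or none, at a dose that the sources used here do not state. Each of the 4 groups held 1 library, from a number of mice that these sources do not state. Values are listed below in the order untreated WT, untreated KO, LPS WT, LPS KO.

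Total counts ranged from 17610372 to 23835940 per library, and the Rab genes took 0.464, 0.444, 0.468 and 0.501% of them. Summed markers of macrophages reached 14861 to 25314 CPM (counts scaled to the library's size, here by TMM), against at most 10.7 CPM for neutrophil, 6.06 for T cell, 31.6 for B cell, 3.12 for fibroblast, 13.2 for dendritic cell, 0.289 for erythroid and 1.45 for mast cell markers. Platelet and megakaryocyte markers summed to 63.2 to 133 CPM, of which Pf4 alone gave 59.5 to 126 CPM. Of the macrophage sum, Lyz2 gave 8711 to 18238 CPM. Of the B cell sum, Cd79b gave up to 31.4 CPM. The genotype tags go against the titles: they call both untreated libraries floxed without cre and both LPS libraries floxed with LysM-cre. If the tags hold, LPS and cre cannot be told apart in any comparison of LPS with untreated libraries given here, with or without the titles in the fit. Fbxw7 itself was at 17.9, 17.2, 9.90 and 11.7 CPM, so it was not lower in either library titled KO than in its WT counterpart by more than counting error. It was lower in both LPS libraries than in both untreated ones. A count over the whole gene does not resolve an excised exon. Lyz1, the neighbour of Lyz2, was at 2.86, 32.9, 33.1 and 2.63 CPM, so the high libraries were untreated KO and LPS WT by title. Lyz2 was at 15253, 8711, 9917 and 18238 CPM, with the low libraries being those same 2. Whether the titles of the LPS libraries are exchanged was not tested. If they are, the test for title takes opposite genotypes together, and each comparison of LPS with untreated libraries within a title is between genotypes as well. Directions between genotypes below are therefore directions between titled libraries. A fit of LPS against untreated libraries that leaves the genotype titles out is given beside the one that uses them.

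The family spanned a wide range of levels. On the authors' scale of FPKM, which divides by gene length and so allows genes to be compared, Rab5c, the most abundant isoform of the early endosome regulator, was at 181, 186, 277 and 289. Rab7, which governs late endosomes and the fusion of phagosomes with lysosomes, followed at 144, 149, 221 and 216. Both had higher FPKM in the LPS libraries than in the untreated ones, which rests on the scaling. With library totals, the log2 LPS effect in the additive fit described below was 0.02 for Rab5c and −0.03 for Rab7. The next level was that of Rab8b, which acts in transport to the plasma membrane, at 69.9, 86.7, 233 and 265 FPKM. It lay below Rab1b, a regulator of transport from the endoplasmic reticulum to the Golgi (90.2, 83.9, 100.5 and 123 FPKM), in 1 of the untreated libraries and near it in the other, and well above it in each LPS library. Rab1a (71.1, 59.9, 94.3 and 118 FPKM), Rab32 (62.8, 39.7, 114 and 117), Rab10 (49.1, 45.4, 95.8 and 113), Rab2a (44.9, 43.0, 63.2 and 70.9), Rab18 (39.6, 36.6, 53.1 and 60.7) and Rab31 (40.7, 37.9, 51.3 and 58.5) made up the remainder of the 10 highest. Between each of these genes and the next, the ranges over the 4 libraries overlapped. The 10 highest genes held 69.5, 67.4, 71.7 and 73.1% of the family's summed FPKM. At the other end, Rab36, Rab30 and Rab37 had the lowest mean FPKM, and 3, 2, 8 and 9 members were under 1 FPKM in the 4 libraries.

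**Figure D1:**
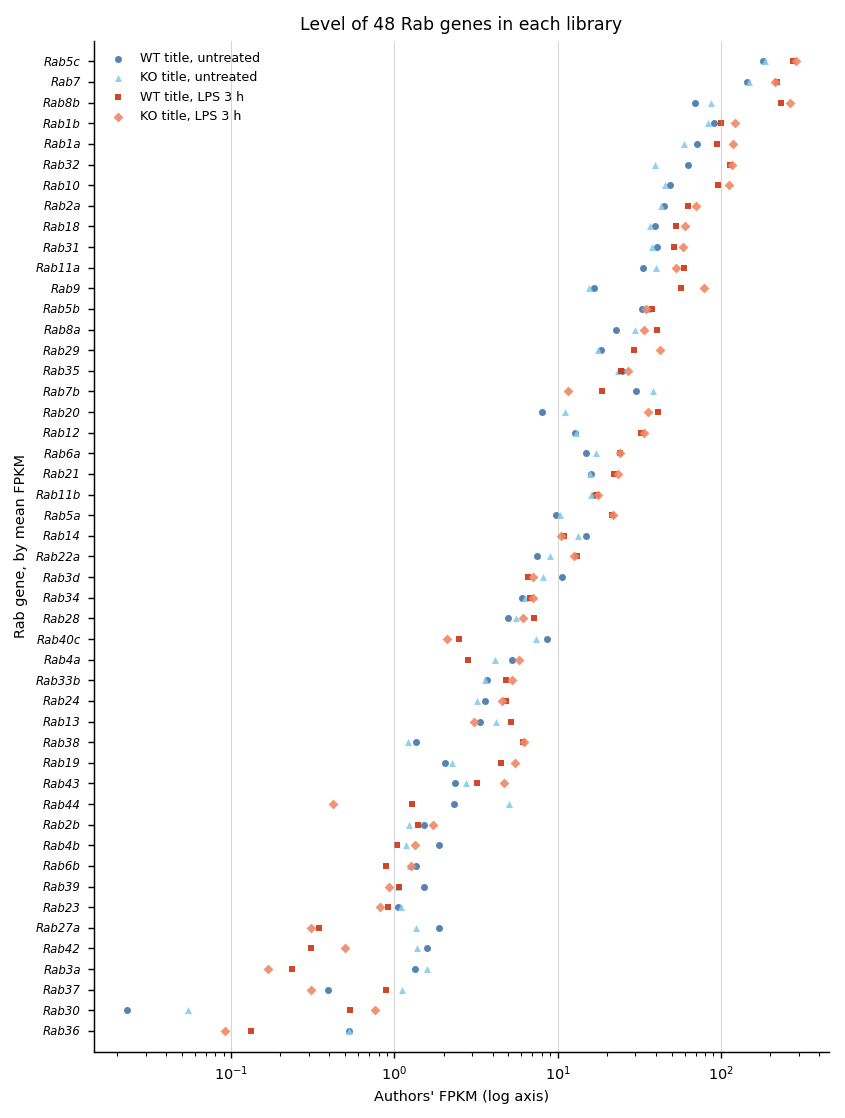
Level of each of the 48 Rab genes (authors' FPKM, log axis) in the 4 libraries, ordered by mean FPKM, with circles and triangles for the untreated libraries titled WT and KO and squares and diamonds for the LPS libraries. Rab5c lies highest at 181 to 289 FPKM, and the red symbols of Rab8b, Rab9, Rab20, Rab38 and Rab30 stand to the right of the blue ones while those of Rab40c, Rab27a and Rab3a stand to the left.

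The response to LPS shared by both titles was asked of all 4 libraries with edgeR's quasi-likelihood test of an additive model of title and treatment. Of 48 Rab genes, 8 rose and 3 fell at an adjusted p under 0.05 (Benjamini-Hochberg over all genes), beside 9.35% of 13989 genes that rose and 5.14% that fell. All 48 passed the expression filter. The model leaves 1 residual degree of freedom, which is the departure from additivity of title and treatment and not a spread between replicates. Each gene's spread was drawn toward a trend over all genes. The ± given below is the standard error of the log2 effect implied by its F statistic. In bulk RNA, fewer cells of a type and less RNA per cell cannot be told apart.

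Among Rab genes of early endosomes and phagosomes, Rab20, which is found on maturing phagosomes, was at 11.4, 16.1, 57.2 and 48.8 CPM. Both LPS libraries lay far above both untreated ones, and Rab20 rose by 2.00 ± 0.26 log2 units (adjusted p = 0.0147). Its antisense neighbour E230013L22Rik overlaps 25.6% of its exonic bases and had 27, 62, 159 and 97 counts, against 251, 445, 982 and 798 for Rab20. The sources used here do not state whether the counting used strand. Rab5a, which drives fusion of early endosomes, was at 52.3, 56.4, 113 and 112 CPM. The libraries fell into a low untreated pair and a high LPS pair, and the rise was 1.08 ± 0.20 log2 units (adjusted p = 0.0322). Its copies Rab5b and Rab5c did not pass, with effects of 0.05 ± 0.22 (adjusted p = 0.904) and 0.59 ± 0.26 (adjusted p = 0.189).

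Of Rab genes that act at recycling endosomes and the plasma membrane, Rab8b was at 338, 426, 1099 and 1221 CPM. Its LPS libraries exceeded both untreated libraries, and it rose by 1.65 ± 0.29 log2 units (adjusted p = 0.0277). Its share of the family's summed FPKM was 6.12 and 7.61% in the untreated libraries and 12.8 and 13.5% in the LPS libraries, a quantity that does not depend on how libraries are scaled. Rab10, a regulator of exocytosis that is reported to carry the LPS receptor to the cell surface, was at 176, 166, 335 and 386 CPM and rose by 1.11 ± 0.25 (adjusted p = 0.0472), again without overlap between treatments. The antisense gene Rab10os shares 4.07% of its exonic bases and had 404 and 568 counts untreated and 303 and 294 after LPS. Rab8a, at 109, 145, 190 and 154 CPM, did not pass (0.48 ± 0.26, adjusted p = 0.268).

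In the late endosomal group, Rab9, which returns receptors of lysosomal enzymes to the Golgi, was at 30.02, 28.2, 99.5 and 135 CPM. It had the smallest p of all members and rose by 2.03 ± 0.25 log2 units (adjusted p = 0.0117). Rab12, which sends recycling receptors to lysosomes, was at 39.5, 40.8, 97.4 and 99.9 CPM, with libraries of 1 treatment lying close together. It rose by 1.33 ± 0.20 (adjusted p = 0.0191).

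Rab38, which with Rab32 serves the biogenesis of lysosome-related organelles such as melanosomes, was at 2.18, 1.99, 9.67 and 9.55 CPM. The treatments did not overlap, and Rab38 rose by 2.24 ± 0.37 log2 units (adjusted p = 0.0231). Rab30, a Golgi-associated Rab, had 5, 15, 88 and 116 counts, or 0.227, 0.542, 5.12 and 7.10 CPM. It had the largest estimated effect of the members, 4.06 ± 0.52 (adjusted p = 0.0133), from the fewest untreated counts among the members that rose. As stated above, it reached the count minimum only through its LPS libraries.

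Those that fell were a granule pair and Rab40c. Rab27a, which docks secretory granules and exosome-forming compartments at the plasma membrane, was at 7.39, 5.50, 1.34 and 1.16 CPM and fell by 2.31 ± 0.42 log2 units (adjusted p = 0.0299). Rab3a, best known from regulated exocytosis of synaptic vesicles, had 67, 101, 9 and 6 counts, or 3.04, 3.65, 0.524 and 0.367 CPM. It fell by 2.86 ± 0.55 (adjusted p = 0.0344), on few counts after LPS. Rab27a and Rab3a reached the count minimum only through their untreated libraries. Rab40c, a Rab with a SOCS box that binds a cullin ubiquitin ligase, was at 27.1, 23.5, 7.69 and 6.30 CPM and fell by 1.82 ± 0.27 (adjusted p = 0.0181). In each of these genes both LPS libraries were lower than both untreated libraries.

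**Figure D2:**
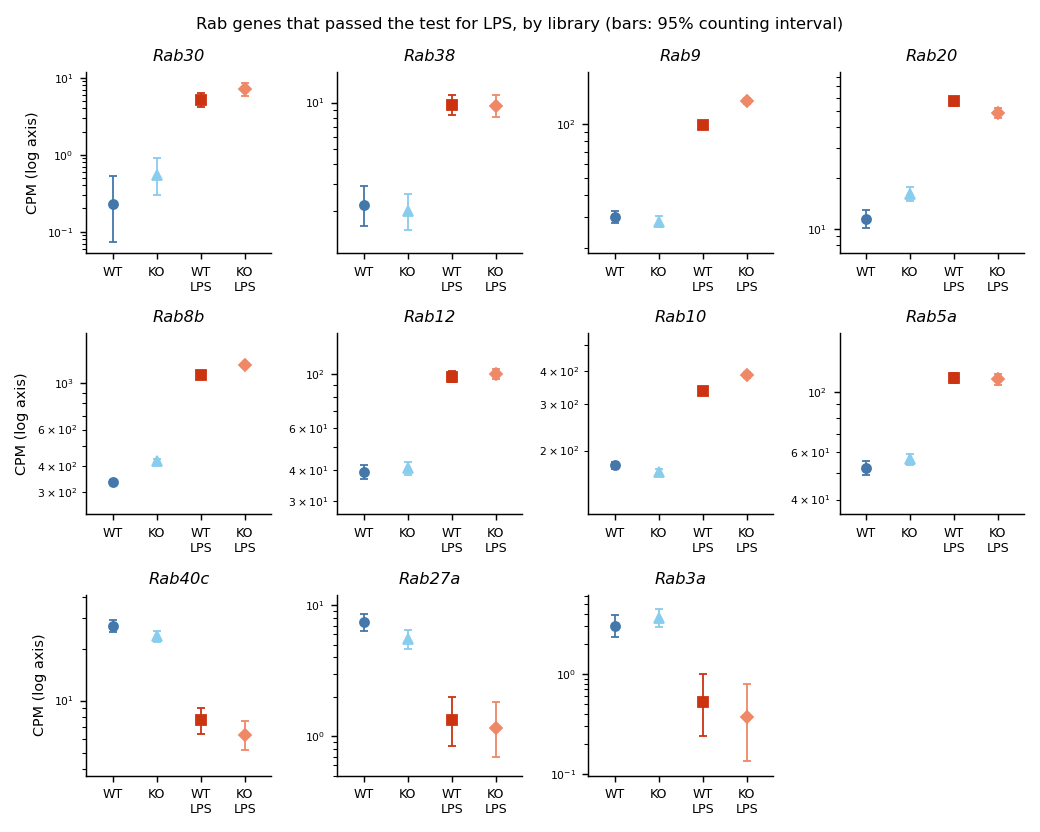
TMM-normalized level (CPM, log axis) in each library of the 11 Rab genes that passed the LPS test, with bars for 95% counting intervals, which a symbol hides where they are narrow. In the upper 8 panels the LPS libraries lie above the untreated ones, from 5.12 and 7.10 against 0.227 and 0.542 CPM for Rab30 to 1099 and 1221 against 338 and 426 CPM for Rab8b, and in the last 3 panels they lie below.

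The direction of these 11 genes held under each of the 11 alternative analyses of this test, all drawn from the same libraries. Among these alternatives, the stricter threshold of an adjusted p under 0.01 could not change a direction. At that threshold none of the 11 genes passed by edgeR. With library totals in place of TMM scaling, the median effect of all genes shifted from −0.05 to −0.63, and Rab8b, Rab10, Rab5a and Rab12 no longer passed, with adjusted p of 0.0580, 0.174, 0.121 and 0.0528. The median effect of the 48 members was 0.44 by TMM and −0.14 by library totals, so whether the family as a whole was higher after LPS rests on the scaling. Relative to the median of all genes it was 0.49 higher. A change of scaling moves all genes nearly alike, so that difference could hardly change between these scalings.

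Just short of the threshold stood Rab36, a Golgi-associated Rab with 73, 93, 14 and 9 counts (effect −2.26 ± 0.52, adjusted p = 0.0503), and Rab32 at 150, 96.3, 265 and 266 CPM (1.18 ± 0.27, adjusted p = 0.0521). They were followed by Rab29, a Golgi and lysosome Rab that recruits the kinase encoded by Lrrk2, at 27.6, 27.0, 42.7 and 60.9 CPM (0.94 ± 0.24, adjusted p = 0.0633). Next came Rab7b, which directs receptors from late endosomes and is reported to limit signalling by the LPS receptor, at 143, 184, 86.2 and 52.4 CPM (−1.23 ± 0.32, adjusted p = 0.0679). When treatment was the only term of the model, so that the genotype titles were not used, 20 members rose and 6 fell, beside 16.7% and 15.3% of all genes (32.1% in either direction). The 11 genes above were among them, with adjusted p from 0.00306 for Rab12 to 0.00853 for Rab10. Rab36 (adjusted p = 0.0118), Rab32 (0.0259), Rab29 (0.0251), Rab19 (0.0238) and Rab7b (0.0305) also passed in that fit by edgeR. So did Rab42, which was lower (0.0343), and Rab5c (0.0399), Rab7 (0.0480), Rab1a (0.0499), Rab2a, Rab6a, Rab11a, Rab18, Rab21 and Rab22a. Effects of the latter 9 genes were from 0.48 for Rab21 to 0.67 for Rab1a by TMM. With library totals the additive effects of Rab5c and Rab7 were 0.02 and −0.03.

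Without any test, both LPS libraries lay above both untreated libraries in 29 of the 47 members with a mean of at least 1 CPM and below them in 11, beside 34.6% and 38.1% of all genes. With library totals in place of TMM these counts were 11 above and 22 below, so the balance turned round. The median of all genes also moved down under that scaling, and the shares of all genes were not taken for it. At a gap of at least 1.5-fold the TMM counts were 11 and 6, beside 14.9% and 16.6%. The members above this gap were the 8 that rose with Rab32, Rab29 and Rab19, and those below it were the 3 that fell with Rab7b, Rab44 and Rab36. Several abundant members hardly differed between treatments by TMM scaling. Rab35, which controls recycling to the plasma membrane, was at 71.2, 68.4, 68.4 and 73.7 CPM. Rab11b was at 104, 101, 106 and 105 CPM, with an effect of 0.07 ± 0.21 (adjusted p = 0.835), and counts among the members lying above. With library totals the effects of Rab11b and Rab35 were −0.50 and −0.51.

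Counts by site of action stand beside the 9.35% of all genes that rose and the 5.14% that fell. Members of the lysosome-related organelle group had a median effect of 1.18 log2 units, with 1 of 3 passing as higher. Secretory granule genes had a median of −2.19, with 2 of 5 passing as lower and 0 higher. That median is the value of Rab44, which did not pass (adjusted p = 0.118) and was 1.85-fold lower after LPS in the libraries titled WT and 12.8-fold lower in those titled KO. The other members of that group were Rab3d at 45.5, 35.7, 27.5 and 29.1 CPM, and Rab44 and Rab37, described below. Medians were 0.55 for 13 genes of the endoplasmic reticulum and Golgi (1 rose), 0.47 for 10 of early endosomes (2 rose), 0.48 for 7 of recycling and the plasma membrane (2 rose) and 0.43 for 7 of late endosomes, lysosomes and autophagy (2 rose). The 2 cilium genes, Rab23 and Rab28, did not pass. The median of all genes was −0.05. These groups were assigned from known roles, and the lists were drawn up with earlier results of these data known.

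Near copies, a term used here for related family members grouped without a comparison of protein sequence, took different shares of their combined FPKM after LPS. Rab8b made up 75.3 and 74.4% of Rab8a and Rab8b in the untreated libraries and 85.1 and 88.7% in the LPS libraries. Rab7b made up 17.4 and 20.5% of Rab7 and Rab7b untreated and 7.82 and 5.11% after LPS. In the Rab5 trio, Rab5c held 80.1 to 83.7% in every library, while the share of Rab5a was 4.34 and 4.43% untreated and 6.38 and 6.31% after LPS. Rab3a fell back against Rab3d, from 11.2 and 16.2% of their sum to 3.47 and 2.33%. Rab38 held 2.11 and 2.97% of the sum of Rab32 and Rab38 untreated and 5.13 and 5.05% after LPS. Rab1a made up 44.1 and 41.7% of Rab1a and Rab1b untreated and 48.4 and 49.0% after LPS. For Rab11a the share was 66.6 and 71.5% untreated and 77.5 and 74.98% after LPS. In each of these sets the shares of the gene named did not overlap between untreated and LPS libraries. How often this holds for other sets of genes was not taken. By CPM, 72.7% of all genes had no overlap between treatments, so this shows nothing particular to these sets. Rab6a held 91.7 to 96.4% of Rab6a and Rab6b, and Rab2a 96.7 to 97.8% of Rab2a and Rab2b. For Rab4a, at 73.7 and 77.7% of Rab4a and Rab4b untreated and 73.1 and 81.3% after LPS, the treatments overlapped.

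**Figure D3:**
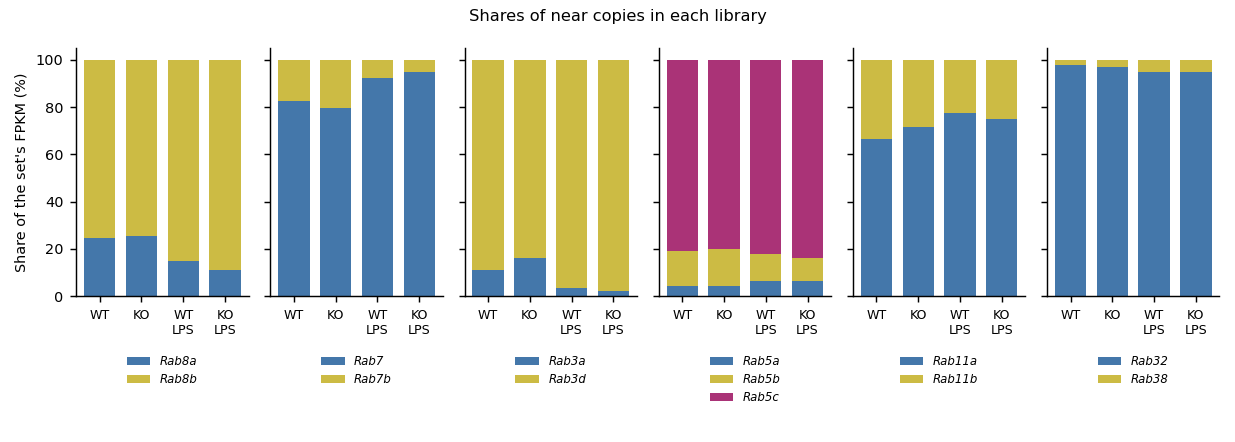
Share of each near copy in the summed FPKM of its set (percent, bars starting at 0) in the libraries titled WT and KO, untreated and after LPS. Rab8b grows from 75.3 and 74.4% to 85.1 and 88.7% of its pair, and Rab7b shrinks from 17.4 and 20.5% to 7.82 and 5.11%.

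Promoter sequence was available from RefSeq (GRCm38.p6) for 39 of the 48 members, 6 of them among those that rose and 3 among those that fell. The windows of 250 bases before the start site had a median GC content of 62.4%, against 56.0% for all protein-coding promoters in the table, and a median of 18 CpG dinucleotides against 10. The GC box, GGGCGG on either strand, occurred in 31 of 39 members, against 47.5% of 16497 protein-coding genes. The E-box CACGTG occurred in 5 members (7.83% of all genes), the TATA box TATAAA in 2 (13.3%), GAGGAA, the core bound by ETS factors, in 8 (25.2%) and the cyclic AMP response element TGACGTCA in 1 (2.29%). The AP-1 motif TGANTCA (7.21% of all genes), the interferon-stimulated response element (3.56%) and the NF-κB motif (4.98%) occurred in 1 member each, Rab34, Rab19 and Rab28. None of these 3 members passed the additive LPS test (adjusted p = 0.0938 for Rab19, which passed with treatment as the only term). Windows of a gene could overlap where it has several start sites, and the motifs could overlap each other. A match describes letters only.

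Shown here are upstream windows of 3 genes that rose and 1 that fell, as examples of responding members with and without the motifs. Each is 5′ to 3′ on the strand of its gene, with matches to any of these motifs in capitals. That of Rab8b lies at chr9:66919706-66919955 (minus strand) and holds GC boxes, that of Rab5a at chr17:53478984-53479233 (plus strand) holds 2 E-boxes, a GC box and the cyclic AMP response element, that of Rab9 at chrX:166479868-166480117 (minus strand) holds none of the motifs, and that of Rab40c at chr17:25919728-25919964 (minus strand, without 13 bases inside the annotated gene) holds 4 GC boxes.
Rab8b: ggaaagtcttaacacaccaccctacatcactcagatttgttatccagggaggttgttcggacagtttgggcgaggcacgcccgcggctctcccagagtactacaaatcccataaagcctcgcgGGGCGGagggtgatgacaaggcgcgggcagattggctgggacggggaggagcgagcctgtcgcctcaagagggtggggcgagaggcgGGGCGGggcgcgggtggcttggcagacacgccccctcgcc
Rab5a: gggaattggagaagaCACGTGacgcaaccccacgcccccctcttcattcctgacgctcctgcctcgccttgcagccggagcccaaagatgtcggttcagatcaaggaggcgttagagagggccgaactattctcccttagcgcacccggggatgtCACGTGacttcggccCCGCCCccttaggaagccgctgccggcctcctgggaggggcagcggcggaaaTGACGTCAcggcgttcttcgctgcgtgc
Rab9: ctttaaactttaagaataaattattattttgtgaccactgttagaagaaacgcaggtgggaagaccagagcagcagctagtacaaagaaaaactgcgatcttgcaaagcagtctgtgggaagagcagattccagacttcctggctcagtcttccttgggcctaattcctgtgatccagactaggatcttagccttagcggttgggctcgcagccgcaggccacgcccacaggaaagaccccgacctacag
Rab40c: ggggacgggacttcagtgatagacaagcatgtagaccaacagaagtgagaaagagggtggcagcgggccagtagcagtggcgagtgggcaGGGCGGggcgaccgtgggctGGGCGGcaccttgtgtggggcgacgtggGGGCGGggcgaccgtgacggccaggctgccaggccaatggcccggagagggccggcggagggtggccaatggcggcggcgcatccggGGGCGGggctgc
The cyclic AMP response element of Rab5a lay 28 to 21 bases before the start site. With 48.8% GC and 7 CpG dinucleotides, the Rab9 window was the least GC-rich of these 4. The full window of Rab40c, with the 13 bases not shown, had 72.4% and 24.

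Within each title, LPS was compared with untreated cells in a pair of libraries, so that no p-value applies. A gene was called at 2-fold or more when the exact 95% binomial interval of its counts excluded no change and its mean was at least 1 CPM. In the libraries titled WT, 9 of 47 members were higher and 4 lower, beside 15.4% and 15% of all genes (30.4% in either direction). In those titled KO, 10 were higher and 7 lower, beside 14.6% and 17.8% (32.4%). These comparisons share no library. The genes called higher in both numbered 7, which is 77.8% of the WT list and 70.0% of the KO list. Those called lower in both numbered 4, which is 100% and 57.1%. The same overlap was not taken over all genes, so these shares show nothing particular to Rab genes.

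Rab30 was 22.6-fold (9.32 to 71.3) higher after LPS in the libraries titled WT and 13.1-fold (7.62 to 24.1) in those titled KO. Ratios for Rab38 were 4.44 (3.20 to 6.26) and 4.80 (3.51 to 6.65), and the intervals overlapped. Rab20 was 5.02-fold (4.37 to 5.79) and 3.03-fold (2.70 to 3.42) higher, and Rab9 3.31-fold (3.03 to 3.63) and 4.79-fold (4.41 to 5.21), so that each had intervals apart but in opposite order. Rab12 had nearly the same ratio in both, 2.46 (2.27 to 2.68) and 2.45 (2.27 to 2.64). Rab8b was 3.26-fold (3.17 to 3.35) and 2.87-fold (2.80 to 2.93) higher, and Rab19 2.16-fold (1.60 to 2.93) and 2.29-fold (1.76 to 2.99). Among genes called lower, Rab27a was 5.52-fold (3.55 to 8.95) and 4.73-fold (2.93 to 8.07) lower, and Rab40c 3.52-fold (2.91 to 4.29) and 3.73-fold (3.03 to 4.64). Rab3a was 5.80-fold (2.88 to 13.2) and 9.95-fold (4.41 to 27.7) lower. Rab36 was 4.06-fold (2.27 to 7.79) and 6.11-fold (3.08 to 13.8) lower. Rab42, with 27, 30, 4 and 6 counts, lay under the minimum of 1 CPM and was not called.

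Members called in 1 title alone were Rab5a (2.16-fold, 2.00 to 2.32, against 1.98-fold) and Rab37 (2.21-fold, 1.53 to 3.24) among those higher in the libraries titled WT. In those titled KO they were Rab10 (2.33-fold, 2.24 to 2.42, against 1.90-fold), Rab32 (2.77-fold, 2.63 to 2.90, against 1.77-fold) and Rab29 (2.26-fold, 2.05 to 2.49, against 1.55-fold), all higher. Rab7b (3.51-fold lower, 3.26 to 3.78), Rab44 (12.8-fold lower, 9.05 to 18.6) and Rab37 (3.89-fold lower, 2.56 to 6.12) were called lower there. The difference between the responses, taken as a log2 ratio of ratios (KO minus WT) with a 95% Poisson interval, exceeded 2-fold for 5 members. It was 1.33 (0.86 to 1.80) for Rab4a, −1.08 (−1.22 to −0.94) for Rab7b, −1.12 (−1.55 to −0.69) for Rab13, −2.77 (−3.36 to −2.19) for Rab44 and −3.07 (−3.86 to −2.29) for Rab37. So 1 member was higher and 4 lower, beside 7.89% and 10.4% of all genes. With 1 library per group these intervals cover counting error only, and the difference could not be tested over samples.

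**Figure D4:**
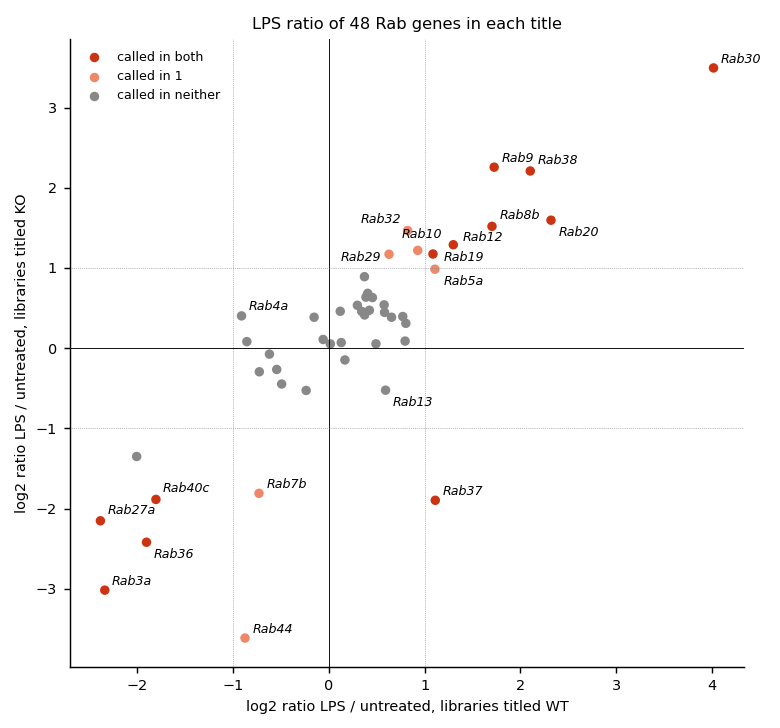
Log2 ratio of LPS to untreated CPM (prior count of 2) for the 48 Rab genes in the libraries titled WT (horizontal) and KO (vertical), with dotted lines at 2-fold and colours for genes called in both titles, in 1 or in neither. Most called genes lie near the diagonal, from Rab30 at upper right to Rab3a and Rab27a at lower left, while Rab37 lies at lower right, higher after LPS in the WT pair (2.21-fold) and lower in the KO pair (3.89-fold).

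No Rab gene passed the test for a difference between titles common to both treatments. In edgeR's additive model 0 of 48 members and 0 of 13989 genes (0%) passed for the title, and at an unadjusted p under 0.05 there were 0 members and 39 genes. Those are far fewer genes than that threshold passes when nothing differs, so this test had little ability to find a difference. The absence of members among them does not show that Rab genes are alike between genotypes. DESeq2 and limma-voom gave 0 members as well. The smallest unadjusted p of a member was 0.181, for Rab30. The median effect of the members was 0.03 log2 units (KO against WT).

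By the size rule, Rab44 and Rab37 were the 2 members called between untreated libraries, both higher in the library titled KO, beside 3.16% of all genes higher and 2.03% lower (5.19% either way). The same 2 genes were the members called after LPS, both lower in the library titled KO, beside 3.42% higher and 4.81% lower (8.23%). Rab44, a large Rab with additional domains that is linked to granules of immune cells, had 263, 734, 111 and 34 counts, or 11.9, 26.5, 6.46 and 2.08 CPM. It was 2.22-fold (1.93 to 2.57) higher untreated and 3.11-fold (2.10 to 4.71) lower after LPS. Rab37, linked to secretory granules of mast cells, had 47, 171, 81 and 26 counts, or 2.13, 6.18, 4.72 and 1.59 CPM, and was 2.90-fold (2.09 to 4.10) higher and 2.96-fold (1.89 to 4.81) lower. For both genes the untreated library titled KO and the LPS library titled WT were the higher of each treatment, as for Lyz1, so that with the LPS titles exchanged both genes would differ in 1 direction. Mast cell markers summed to 0.272, 1.45, 1.397 and 0.734 CPM and neutrophil markers to 3.58, 4.12, 10.7 and 3.18 CPM. The mast cell marker Cpa3 had 3, 34, 20 and 12 counts, and Mcpt4 and Tpsb2, which define connective-tissue mast cells, had 0 in every library. The part of these cells in the result was not tested.

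Smaller differences between titles ran the same way for Rab7b and Rab13. Rab7b stood at 143 and 184 CPM untreated and at 86.2 and 52.4 CPM after LPS. Rab13, which acts at cell junctions and recycling endosomes, was at 7.85, 9.98, 11.9 and 6.91 CPM. Rab4a, which acts in rapid recycling from early endosomes, went the other way at 9.39, 7.52, 4.95 and 9.97 CPM, so that the LPS library titled WT was the low one. Rab32 was lower in the untreated library titled KO (96.3 against 150 CPM) and level after LPS (266 against 265 CPM).

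**Figure D5:**
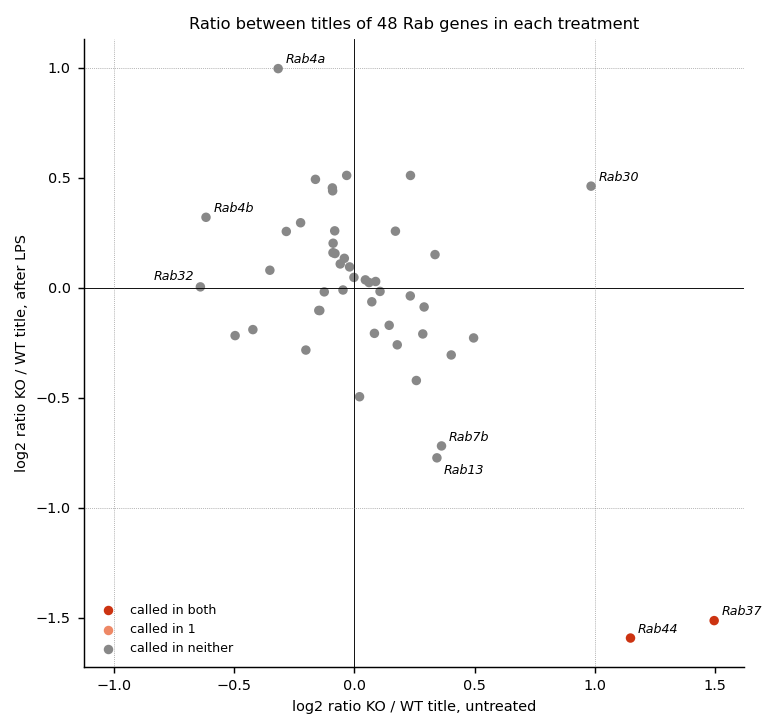
Log2 ratio of KO to WT title for the 48 Rab genes, untreated (horizontal) and after LPS (vertical), with dotted lines at 2-fold. Rab44 and Rab37, in red at lower right, are called higher in the untreated library titled KO (2.22-fold and 2.90-fold) and lower in the LPS library titled KO (3.11-fold and 2.96-fold), and the other members lie inside the lines or are not called.

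Genes that act on Rab proteins were taken from a list of 125, of which 116 were tested in the additive model. Of these, 9 rose and 10 fell with LPS, beside 9.35% and 5.14% of all genes. GEFs gave 4 risers and 6 fallers of 39. Rin2, a Rab5 exchange factor, was at 78.1, 103, 989 and 972 CPM and rose by 3.49 ± 0.31 log2 units (adjusted p = 0.00637). Its relatives went the other way, with Rin1 at 2.27, 3.62, 0.291 and 0.245 CPM (−3.35 ± 0.61, adjusted p = 0.0293) and Rin3 at 70.8, 49.6, 24.6 and 25.1 CPM (−1.22 ± 0.24, adjusted p = 0.0348). The exchange factor genes Madd and Rab3il1 also fell, with Madd at 120, 140, 25.3 and 26.0 CPM (−2.30 ± 0.21, adjusted p = 0.00701) and Rab3il1 at 141, 161, 37.7 and 37.6 CPM (−1.97 ± 0.21, adjusted p = 0.00933). Dennd4a, an exchange factor of Rab10, rose by 1.01 ± 0.20 (adjusted p = 0.0369), as did Rab3ip, which activates Rab8 proteins, by 1.64 ± 0.35 (adjusted p = 0.0435) and Dennd6b by 1.66 ± 0.36 (adjusted p = 0.0436).

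GAPs gave 1 riser and 3 fallers of 34. Tbc1d1, which acts on Rab8 and Rab10 proteins, was at 50.1, 40.1, 102 and 133 CPM and rose by 1.42 ± 0.27 (adjusted p = 0.0322). Tbc1d8 (−1.99 ± 0.24), Tbc1d17 (−1.78 ± 0.22) and Tbc1d24 (−1.42 ± 0.31) fell, with adjusted p of 0.0114, 0.0118 and 0.0468. Of 7 genes of GDP dissociation inhibitors and Rab prenylation, 0 passed by edgeR, and 1 had an unadjusted p under 0.05. Effectors gave 4 risers and 1 faller of 36. Eea1, the Rab5 tether of early endosomes, was at 66.6, 56.4, 170 and 156 CPM and rose by 1.44 ± 0.21 (adjusted p = 0.0181). Rab11fip1, an adaptor of Rab11 on recycling endosomes, was at 12.1, 24.9, 317 and 144 CPM and rose by 3.65 ± 0.60 (adjusted p = 0.0227), and the phosphatase gene Inpp5b and Rilpl2 rose by 1.59 ± 0.20 (adjusted p = 0.0133) and 1.37 ± 0.24 (adjusted p = 0.0256). Plekhm1, a Rab7 effector of lysosome fusion, was at 216, 215, 65.9 and 82.3 CPM and fell by 1.51 ± 0.23 (adjusted p = 0.0197). Over the 116 tested genes of this list the median effect was −0.35.

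In the authors' deposited table, 7 members were higher and 5 lower after LPS in the libraries titled WT at an adjusted p under 0.05, beside 9.94% and 8.3% of genes with such a value. In those titled KO the authors' deposited table gave 9 higher and 7 lower, beside 9.05% and 10.2%. For KO against WT titles the authors' deposited table called 0 members untreated and 0 after LPS, beside 0.823% of genes untreated (0.651% higher, 0.172% lower) and 1.59% after LPS (0.634% higher, 0.961% lower). The sources used here do not state the test behind those p-values. Each such comparison held 1 library per group, so the p-values rest on no spread between replicates.

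Reads of some members could be shared with other genes. Of the 48, 17 had exons that overlap another GENCODE M21 gene, on the same strand for 5. Overlap exceeded 20% of exonic bases for Rab43 (75.4%, with Gm45140), Rab4b (65.0%, with Gm21983), Rab24 (62.4%, with the highly expressed Prelid1), Rab2b (59.3%, with Gm43766) and Rab20 (25.6%), so the levels of these 5 are uncertain. Stretches of 100 bases that also occur in transcripts of another gene made up 10.4% of those of Rab11b and 9.17% of those of Rab7, chiefly from the pseudogenes Rab11b-ps2 and Rab7-ps1, and 3.88% of those of Rab8b.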

How the data were processed

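Polyadenylated RNA of 4 macrophage libraries was sequenced, and the authors aligned reads to mm10 with HISAT2 2.0.5, as the submitters' processing notes list them. Raw read counts per gene and library were deposited, per the file headers. The table also held the authors' FPKM, per the file headers, with library sizes of 1.28, 1.20, 0.817 and 0.818 times the count totals. The authors' deposited log2 fold, p-value and adjusted p-value per comparison were copied, per the file headers. The sources used here do not state the authors' counting program, strand setting or test. A further 8 per-sample columns stayed out.

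Groups followed the sample titles, with replicates absent. Counts were scaled by TMM (factors 1.25, 1.16, 0.820 and 0.840). edgeR 4.0.16 (filterByExpr, quasi-likelihood F test, Benjamini-Hochberg adjustment over all genes) fitted title and treatment. It was tested on simulated data. Comparisons of 2 libraries used log2 CPM with a prior count of 2, a 2-fold threshold, a mean of at least 1 CPM and exact 95% binomial (Clopper-Pearson) intervals. Printed folds use no prior count. The difference of responses used counts plus 0.5. Intervals and floors cover counting error only. The spread behind the additive p-values is the departure from additivity of title and treatment, which edgeR draws toward a trend over all genes. Without titles in the fit the spread is that between the libraries of a treatment, drawn likewise. Neither is a spread between replicates. Genes were joined by identifier. GENCODE M21 (GRCm38) held all 48 members, 46 at the same position. Promoters came from RefSeq (GRCm38.p6), and protein sequences were not used here.

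Alternatives were library totals, DESeq2 size factors, DESeq2 1.42.0, limma-voom (limma 3.58.1), other filters and thresholds, treatment as the only term, libraries left out and crossed pairs. Members given with values were those that passed a test, were called by size, were among the 10 of highest mean FPKM, lay next to the count minimum or were near copies of these. Others of the pathway were named if they passed, at most 4 per role and direction by p. The members and lists were chosen with earlier results of these data known. Scripts ran in Python 3.11.15 (matplotlib 3.10.9, SciPy 1.17.1, NumPy 2.4.6, pandas 2.3.3) and R 4.3.3.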

Additional observations from a re-analysis of the deposited data

Results flagged for a closer look

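Several Rab genes moved in opposite directions after LPS in the libraries titled WT and KO, with counting intervals that excluded no change in each. The log2 ratios were 1.11 and −1.90 for Rab37, −0.91 and 0.40 for Rab4a, 0.59 and −0.52 for Rab13 and 0.17 and −0.15 for Rab5b. Between titles, Rab44 had log2 ratios of KO to WT of 1.15 without treatment and −1.59 after LPS, and Rab37 of 1.49 and −1.51. By library totals in place of TMM, the LPS ratios were −0.44 and −0.61 for Rab5b, −0.012 and −0.98 for Rab13, −1.51 and −0.059 for Rab4a and 0.52 and −2.34 for Rab37. Opposite signs thus remained for Rab37 alone of these 4, and its interval for WT (−0.0010 to 1.09) then included no change. The share of all genes with such opposite directions was not taken. By the size rule, the difference of responses was called in 18.3% of all genes in either direction. With 1 library per group these differences were not tested.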

How the results depend on the processing

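No paired analysis was possible because the labels pair no libraries by a replicate number. The additive test has the title as a term. With library totals in place of TMM, which shifts the median of all genes downward after LPS, 4 members rose and 9 fell in the additive test, against 8 and 3. Under that scaling the members' median LPS effect was −0.14 in the additive test, −0.22 in the libraries titled WT and −0.071 in those titled KO. LPS calls were then 5 higher and 12 lower for WT and 6 higher for KO, LPS libraries lay above both untreated ones in 11 members and below in 22, the difference of responses gave 2 higher and 2 lower, and after LPS 1 member was higher in the KO title. DESeq2 size factors gave 1 such member and 2 with a higher difference of responses. At an adjusted p under 0.01, 0 members rose and 0 fell. DESeq2 called 5 as falling and the fit with no expression filter 6. Treatment as the only term gave 20 and 6, and, with each library left out of that fit in turn, 8 to 10 rose and 4 to 6 fell. Without the untreated library titled WT, or without the LPS library titled WT, 6 fell.

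At 1.5-fold, LPS calls for WT were 17 higher and 10 lower, 2 members were lower in the untreated KO title, 1 was higher and 4 lower in the KO title after LPS, and 3 had a higher difference of responses. At 3-fold, 5 were higher for WT and 4 for KO, 0 were called between untreated titles and 1 was lower after LPS, and the difference gave 0 higher and 2 lower. A minimum of 5 CPM left 1 lower for WT, 3 lower for KO, 1 higher in the untreated KO title and 1 lower after LPS. With the authors' FPKM and a pseudocount of 1, which shrinks low genes, 2 were lower for WT and 4 for KO, and 0 members were called between titles in either treatment. A prior count of 0.5 added 1 member higher in the KO title after LPS. A gap of at least 1.5-fold left 11 members above and 6 below. With the LPS library of the other title, the log2 LPS ratio of Rab37 from the untreated library titled WT was −0.40, against 1.11. Except for treatment as the only term and the gap of at least 1.5-fold, shares of all genes were not taken for these alternative settings. The cause of these changes was not tested. Low counts limit Rab30, Rab3a, Rab36, Rab37 and Rab42.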
